A study of Mus musculus with 20 samples.

Results

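The ligands, receptors and Smads of transforming growth factor beta (TGF beta) were followed in the salivary glands of C57BL/6J mice aged 4, 8, 12 or 16 weeks. The 10 genes were Tgfb1, Tgfb2, Tgfb3, Tgfbr1, Tgfbr2, Tgfbr3, Smad2, Smad3, Smad4 and Smad7, chosen by name among 18194 measured genes. They were represented by 25 of the 34958 probe sets annotated with a single gene symbol. The brightest probe set, by its mean of all 20 arrays, stood for its gene, and the remaining probe sets are given beside it. Each age was represented by 5 mice labelled male, with 1 Affymetrix mouse genome array per mouse, and salivary glands were taken without their lymph nodes. The labels name no transgene or treatment, and the mice served as the healthy comparators of C57BL/6.NOD-Aec1Aec2 mice, whose arrays were not analysed here. The comparisons ask how the pathway differs between ages in the comparator strain.

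TGF beta ligands are secreted in a latent complex that is held in the extracellular matrix and must be activated, for example by integrins. Active ligand binds the type II receptor Tgfbr2, which recruits and phosphorylates the type I receptor Tgfbr1, and the coreceptor Tgfbr3 (betaglycan) presents ligand to them. The activated receptor phosphorylates Smad2 and Smad3, which join the common Smad, Smad4, and enter the nucleus, while Smad7 inhibits the receptors. The pathway is known for inducing collagens and other matrix genes in fibroblasts and for restraining lymphocytes and epithelial growth. In a whole gland, fewer cells of a type and less RNA per cell cannot be told apart, and phosphorylation of Smads is not measured by arrays.

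Values were log2 signals, and changes are log2 fold changes of the later over the earlier age. A gene was called at an adjusted p under 0.05 from limma, with Benjamini-Hochberg adjustment over all genes. The arrays showed genes of the salivary epithelium, as Aqp5, Bhlha15, Klk1 and Smgc lay at or above the 97.3rd percentile of genes in every array. Of other acinar and duct markers, Egf and Epcam lay at or above the 91.5th percentile in every array. Krt7 had mean log2 signals between 5.73 and 6.98 at the 4 ages, and Krt19 had low ones, between 3.62 and 3.99. Amy1 and Dcpp1 varied, and their lowest arrays lay at the 12.5th and 15.5th percentiles. Xist ranged from 8.96 to 10.7 although the mice were labelled male, and of 3 Y-linked genes Eif2s3y ranged from 2.07 to 2.97, Kdm5d from 3.65 to 4.75 and Uty from 4.58 to 5.76. In every array, Xist lay at about the 96.3rd percentile of genes or higher and Eif2s3y at about the 4.6th or lower. Kdm5d and Uty reached the 31.2nd and 59.4th percentiles. High Xist with low Eif2s3y does not match the label, and the sex of the mice was not tested. The parotid secretory protein gene Bpifa2 ranged from 6.28 to 13.3 over the 20 arrays, with medians of 12.8, 7.49, 7.74 and 7.47 in the order of age. Within arrays, gene values had an SD of 1.68 ± 0.145, 1.498 ± 0.0901, 1.64 ± 0.0273 and 1.51 ± 0.139 in the order of age (mean ± SD over 5 mice). Arrays at 12 weeks had a higher SD than those at 8 weeks (two-sided exact permutation test with p = 0.00794, or 0.0238 when adjusted over 3 tests), whereas the differences between 4 and 8 and between 12 and 16 weeks did not pass after adjustment (exact permutation test, adjusted p = 0.0714 for each).

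Of the 10 genes, Tgfbr1 alone was called in a comparison of neighbouring ages. It fell between 4 and 8 weeks, when 7.39% of all genes were called and 4.13% were called lower. None of the 10 genes was called by limma between 8 and 12 weeks (0.0055% of all genes called), between 12 and 16 weeks (0.192%), between 4 and 12 weeks (0.0934%), between 8 and 16 weeks (0%) or between 4 and 16 weeks (3.63%), nor in the F test over the 4 ages (2.6%). At an unadjusted p under 0.05, 3 genes passed between 4 and 8 weeks (against 32.4% of all genes), 3 between 8 and 12 weeks (18.8%), 2 between 12 and 16 weeks (14.2%), 1 between 4 and 12 weeks (9.03%), 0 between 8 and 16 weeks (5.81%) and 3 between 4 and 16 weeks (24.2%). The signs of the 10 log2 fold changes differed between periods. From 4 to 8 weeks 6 of 10 were negative, with a median of -0.34 against 0.05 over all genes. From 8 to 12 weeks 1 of 10 was negative, with a median of 0.30 against -0.05, and between 12 and 16 weeks 7 of 10 were negative, with a median of -0.13 against -0.02. Neighbouring periods share the 5 arrays of 1 age, so that a low or high age enters both with opposite signs. The SD of gene values within an array, given above, moved alike, with lower means at 8 and 16 weeks. With this SD as a covariate, added after seeing the data, the medians of the 10 genes were -0.02, 0.05 and 0.02 in the 3 periods, 6, 4 and 5 of 10 values were negative, and 0 genes were called by limma. This SD was computed from the same gene values and differed with age, without overlap between the arrays at 8 and 12 weeks. The effects of age and of this SD therefore cannot be told apart in such fits.

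**Figure D1:**
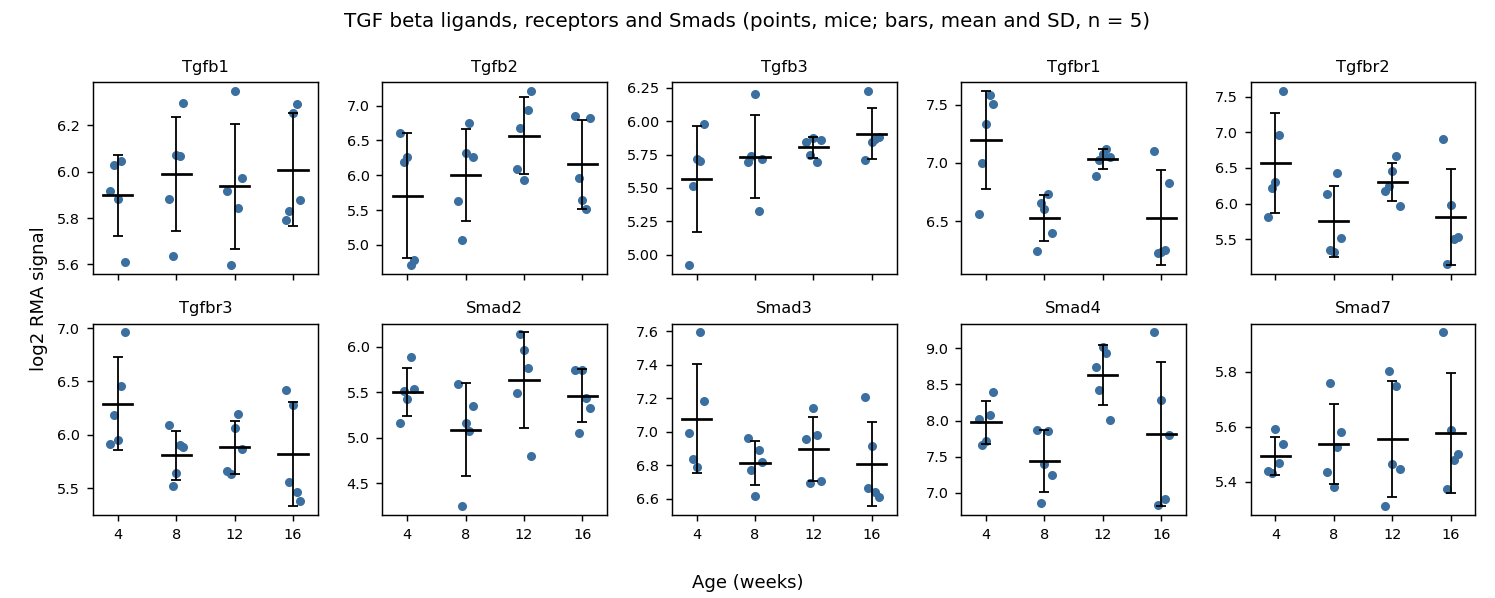
Log2 signal (vertical axis) of the 10 genes by age in weeks, where points are mice and bars give the mean and SD of 5 mice. Tgfbr1 lay between 6.25 and 6.74 at 8 weeks and between 6.89 and 7.12 at 12 weeks, while Smad7 lay between 5.31 and 5.94 over all ages.

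The 3 ligands were not called at any age. Tgfb1, the most studied ligand of the family and a regulator of leukocytes, had log2 signals of 5.92, 6.03, 5.88, 6.05 and 5.61 at 4 weeks, 5.88, 5.64, 6.07, 6.07 and 6.30 at 8 weeks, 5.92, 5.60, 6.35, 5.85 and 5.98 at 12 weeks, and 5.79, 5.83, 6.25, 6.29 and 5.88 at 16 weeks. All 4 ages overlapped. Its log2 fold change was 0.11 between 4 and 16 weeks (95% interval -0.21 to 0.44, limma, adjusted p = 0.694), and those of the neighbouring periods lay between -0.05 and 0.09. The 95% interval between 4 and 8 weeks ran from -0.23 to 0.42.

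Tgfb2, which is prominent in epithelial and mesenchymal development, had an SD between 0.55 and 0.89 among the mice of each age. At 4 weeks its signals were 6.60, 6.18, 6.27, 4.71 and 4.78, so that 3 mice lay above 6 and the other two below 5. The means were 6.01 ± 0.66 at 8 weeks, 6.57 ± 0.55 at 12 weeks and 6.16 ± 0.64 at 16 weeks (SD, n = 5 mice). The log2 fold change between 4 and 12 weeks, 0.86 (95% interval 0.04 to 1.69), was the highest of the 10 genes in that comparison and did not pass the test (limma, adjusted p = 0.534). Tgfb3, a ligand with roles in epithelial fusion and mesenchyme, had means of 5.57 ± 0.40, 5.74 ± 0.31, 5.80 ± 0.08 and 5.91 ± 0.19 (SD, n = 5 mice) at 4, 8, 12 and 16 weeks. The order of these means was that of age, but the mice of every neighbouring pair of ages overlapped. From 4 to 16 weeks the log2 fold change was 0.34 (95% interval -0.02 to 0.70, limma, adjusted p = 0.234).

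The receptors were lower at 8 than at 4 weeks in their leading probe sets, and Tgfbr1 was the one that passed the test. Tgfbr1, the type I receptor kinase, had log2 signals of 6.56, 7.002, 7.33, 7.58 and 7.51 at 4 weeks and of 6.25, 6.65, 6.60, 6.74 and 6.40 at 8 weeks. The mouse with 6.56 lay among those at 8 weeks, and the other 4 mice at 4 weeks lay above all mice at 8 weeks. Tgfbr1 thus fell by 0.67 between 4 and 8 weeks (standard error, SE, 0.19, 95% interval -1.07 to -0.27, limma, adjusted p = 0.0424), or 1.59-fold. This call held with a filter on dim genes and with limma-trend (limma, adjusted p = 0.0403 and 0.0445) and was lost under the other 7 alternatives, among which the adjusted p reached 0.973 with the mean of its probe sets. With the SD of each array as a covariate the log2 fold change was -0.35 (limma, adjusted p = 0.508), and with the level of Bpifa2 as a covariate it was -0.51 (limma, adjusted p = 0.216). Each mouse was also left out in turn, and the call was lost without any 1 of 11 of the 20 mice (limma, adjusted p up to 0.14).

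**Figure D2:**
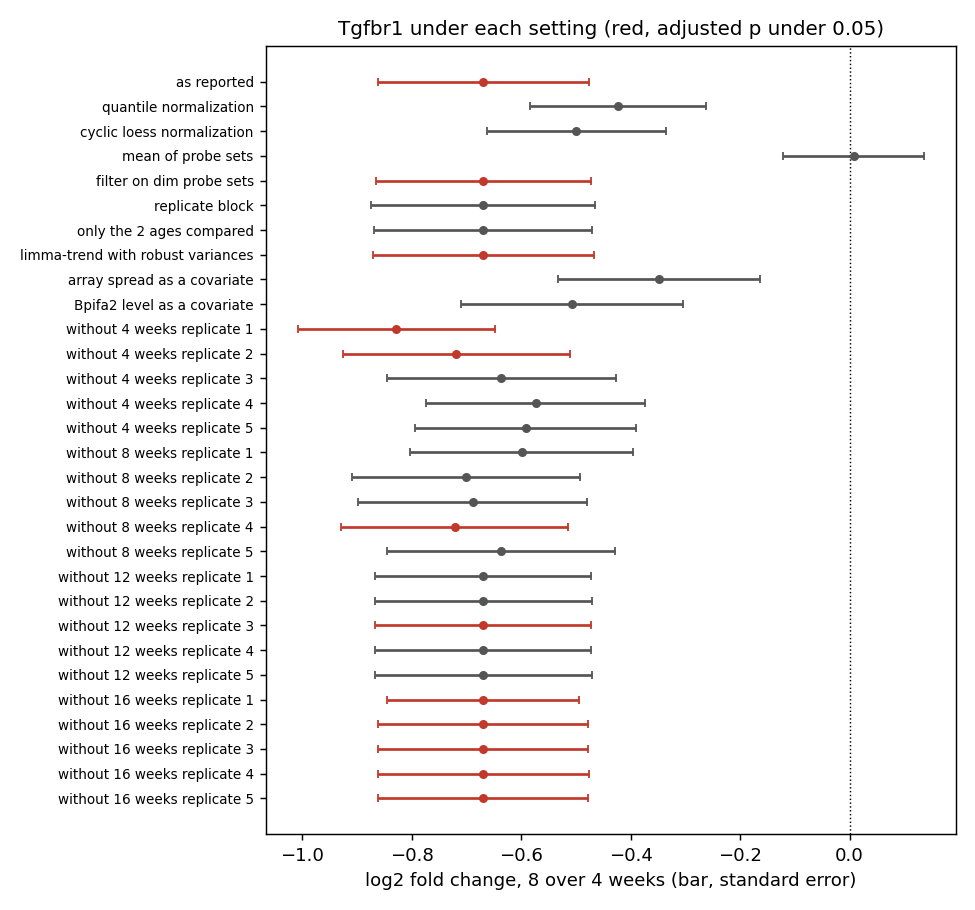
Log2 fold change of Tgfbr1 between 4 and 8 weeks (horizontal axis) under each way of processing and without each mouse, with called values in red and bars at the SE. Values without 1 mouse lay between -0.83 and -0.57, and the mean of the probe sets lay at 0.0076.

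At 12 weeks Tgfbr1 had signals of 6.89, 7.03, 7.08, 7.12 and 7.06, all above those at 8 weeks. The log2 fold change between 8 and 12 weeks was 0.51 (95% interval 0.11 to 0.91) and did not pass the test (limma, adjusted p = 0.192). At 16 weeks signals were 7.10, 6.23, 6.24, 6.26 and 6.83, so that 3 mice lay close to each other and 1 lay among the mice at 12 weeks. The log2 fold change was -0.50 between 12 and 16 weeks (limma, adjusted p = 0.269) and -0.67 between 4 and 16 weeks (limma, adjusted p = 0.0549). In the order of means, 4 weeks was followed by 12 weeks, with an interval for the difference between them of -0.56 to 0.24, and then by 8 and 16 weeks, with an interval of -0.40 to 0.40. Over the 20 arrays the genes most like Tgfbr1 were Herpud2, Tmem30b and Septin7, with Pearson correlations of 0.906, 0.905 and 0.904. These correlations are descriptions, as the arrays share differences in the spread of values.

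Tgfbr2, the type II receptor that binds ligand first, had signals of 5.81, 6.21, 6.30, 6.96 and 7.58 at 4 weeks and of 6.14, 5.34, 5.32, 6.42 and 5.52 at 8 weeks. The 2 ages overlapped, and the mouse with 7.58 was the highest of the 20. The log2 fold change of -0.82 (SE 0.33, 95% interval -1.50 to -0.15) was the lowest of the 10 genes between 4 and 8 weeks, but it did not pass the test (limma, adjusted p = 0.095). Means were 6.30 ± 0.27 at 12 weeks and 5.81 ± 0.68 at 16 weeks (SD, n = 5 mice), with log2 fold changes of 0.55 between 8 and 12 weeks and -0.49 between 12 and 16 weeks (limma, adjusted p = 0.346 and 0.513). Tgfbr3, the coreceptor, had a mean of 6.29 ± 0.43 at 4 weeks and of 5.81 ± 0.23, 5.88 ± 0.24 and 5.82 ± 0.49 at 8, 12 and 16 weeks (SD, n = 5 mice). The 3 later ages were close to each other. Its log2 fold change of -0.49 between 4 and 8 weeks (95% interval -0.94 to -0.03) did not pass the test (limma, adjusted p = 0.135).

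The Smads were not called in any comparison. Smad4, which is shared by the TGF beta and bone morphogenetic protein pathways, had signals of 8.02, 7.66, 7.72, 8.07 and 8.39 at 4 weeks, 7.87, 6.86, 7.40, 7.85 and 7.25 at 8 weeks, and 8.74, 8.42, 9.02, 8.93 and 8.01 at 12 weeks. All mice at 12 weeks lay above all mice at 8 weeks. Smad4 and Tgfbr1 were the 2 of 10 genes whose mice at 8 and 12 weeks did not overlap, against 5.34% of all genes, and 0 of 10 were without overlap in the other comparisons (5.75% of all genes between 4 and 8 weeks, 2.65% between 12 and 16, 2.35% between 4 and 12, 0.945% between 8 and 16 and 3.07% between 4 and 16 weeks). The log2 fold change of Smad4 between 8 and 12 weeks was 1.18 (SE 0.34, 95% interval 0.47 to 1.90), the highest of the 10 genes in any comparison, and it did not pass the test (limma, adjusted p = 0.137). It passed when the arrays of these 2 ages were fitted alone (limma, adjusted p = 0.0446, with adjusted p between 0.0446 and 0.689 over the alternatives). That fit also called far more of all genes than the fit to all ages did, as given with the effects of the processing.

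At 16 weeks Smad4 signals were 9.22, 6.83, 8.28, 6.92 and 7.80. They spanned the values of all other ages, and the log2 fold change of -0.82 between 12 and 16 weeks did not pass the test (limma, adjusted p = 0.299). Replicate 1 at 16 weeks, the mouse with 9.22, had the highest value of its age in 8 of the 10 genes and the lowest in the other two, Tgfb1 and Tgfb3. Its array had an SD of gene values of 1.74, the highest at 16 weeks. Without this mouse Tgfbr1 and Smad4 were called between 12 and 16 weeks, with log2 fold changes of -0.65 and -1.17 (limma, adjusted p = 0.0458 and 0.027), and Tgfbr1 and Tgfbr2 between 4 and 16 weeks, with -0.81 and -1.03 (limma, adjusted p = 0.00868 and 0.0247). With every mouse kept, 0.192% and 3.63% of all genes were called in these comparisons. These shares do not belong to the fit without this mouse and cannot be set beside the gained calls. When single mice were left out, the counts of all genes moved widely and reached far higher values in both comparisons, as given with the effects of the processing. The gained calls are therefore descriptions and not results about these genes alone.

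Smad2 and Smad3 are the Smads that the TGF beta receptors phosphorylate. Smad2 means were 5.50 ± 0.26, 5.09 ± 0.51, 5.63 ± 0.52 and 5.46 ± 0.29 in the order of age, and those of Smad3 were 7.08 ± 0.33, 6.81 ± 0.13, 6.90 ± 0.19 and 6.81 ± 0.25 (SD, n = 5 mice). The ages overlapped for both genes. From 4 to 8 weeks the log2 fold changes were -0.42 for Smad2 and -0.27 for Smad3 (limma, adjusted p = 0.236 and 0.234), and between 8 and 12 weeks they were 0.55 and 0.08 (limma, adjusted p = 0.242 and 0.768). Smad7, the inhibitory Smad that is itself induced by TGF beta, had means between 5.49 and 5.58 at the 4 ages. Its signals at 4 weeks were 5.44, 5.43, 5.59, 5.47 and 5.54, the narrowest group of any of the 10 genes. The log2 fold change of Smad7 was 0.08 between 4 and 16 weeks (95% interval -0.18 to 0.35, limma, adjusted p = 0.718).

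**Figure D3:**
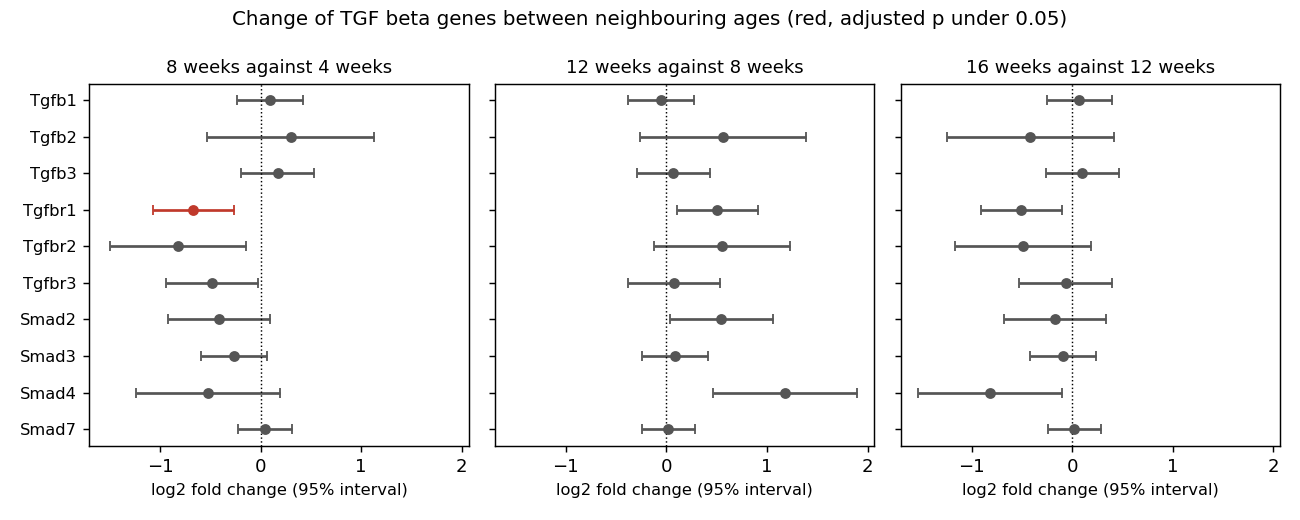
Log2 fold change (horizontal axis, with 95% interval) of the 10 genes for the 3 periods between neighbouring ages, with the called gene in red. Tgfbr1 between 4 and 8 weeks, at -0.67, was the called gene, and the interval of Smad4 between 8 and 12 weeks ran from 0.47 to 1.90.

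Probe sets of the same gene often differed in sign. Of 9 genes with several probe sets, all probe sets had one sign in 2 genes between 4 and 8 weeks, in 4 between 8 and 12 weeks, in 4 between 12 and 16 weeks and in 3 between 4 and 16 weeks. Between 4 and 8 weeks, some probe sets opposite in sign to the leading one were dim. Means over all arrays were 3.65 for 1422019_at of Tgfbr2 and 3.83 for 1443771_x_at of Smad7. In Tgfb1 the levels were closer, with 5.96 for the leading probe set and 5.66 for 1420653_at. With adjustment over all probe sets of the array, 1 of the 25 was called between 4 and 8 weeks (7.44% of all probe sets), the leading probe set 1420895_at of Tgfbr1. Another probe set of Tgfbr1, 1420893_a_at, had signals of 4.17, 3.91, 4.06, 4.53 and 3.72 at 4 weeks and of 4.60, 4.61, 4.58, 4.45 and 5.16 at 8 weeks. Its log2 fold change was 0.60 (95% interval 0.18 to 1.02), opposite in sign to the leading probe set, and did not pass the test (limma, adjusted p = 0.0621). The third, 1420894_at, had 0.09 (limma, adjusted p = 0.728). The lower Tgfbr1 at 8 weeks was therefore a result of 1 of 3 probe sets, the brightest. Its mean over all arrays was 6.82, against 4.41 for 1420893_a_at and 3.60 for 1420894_at. The mean of 1420893_a_at lay within the range of the Y-linked Kdm5d, 3.65 to 4.75, and that of 1420894_at lay below it. Whether these dim probe sets stood above background was not tested. Both enter the mean of probe sets, which gave 0.0076.

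Tgfbr3 showed a similar split. Its probe set 1425620_at, not the leading one, rose by 0.80 between 4 and 16 weeks (SE 0.22, 95% interval 0.35 to 1.26, limma, adjusted p = 0.044), the 1 of 25 called in this comparison (3.74% of all probe sets). Between 8 and 12, 12 and 16, 4 and 12 and 8 and 16 weeks 0 of 25 were called by limma, against 0.00222%, 0.0843%, 0.253% and 0% of all probe sets, and 6, 5, 4 and 0 passed at an unadjusted p under 0.05. Signals of 1425620_at were 4.86, 5.23, 5.46, 5.39 and 4.59 at 4 weeks and 5.45, 6.58, 5.74, 6.08 and 5.70 at 16 weeks, where the lowest mouse lay just below the highest at 4 weeks. Its mean over all arrays, 5.49, and its signals at 4 weeks lay within the range of the Y-linked Uty, 4.58 to 5.76. The leading probe set 1433795_at had a log2 fold change of -0.47 over the same ages (limma, adjusted p = 0.197 over all probe sets). The call of 1425620_at was lost under 6 alternatives, which are given with the effects of the processing. The 3 probe sets of Smad4 had one sign in each period between neighbouring ages. From 4 to 8 weeks they had log2 fold changes of -0.53, -1.28 and -0.85, and between 8 and 12 weeks 1.18, 1.29 and 0.55, in the order 1422486_a_at, 1422487_at and 1422485_at. None of these values passed, the lowest adjusted p being 0.052 from limma, for 1422487_at between 4 and 8 weeks. In Tgfb2, 3 of 4 probe sets had log2 fold changes between 0.56 and 1.07 between 8 and 12 weeks, and 1438303_at had -0.13. The leading probe set of Tgfb1 had 0.09 between 4 and 8 weeks and the other one -0.26, while in Tgfbr2 the 3 values were -0.82, -0.23 and 0.15.

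**Figure D4:**
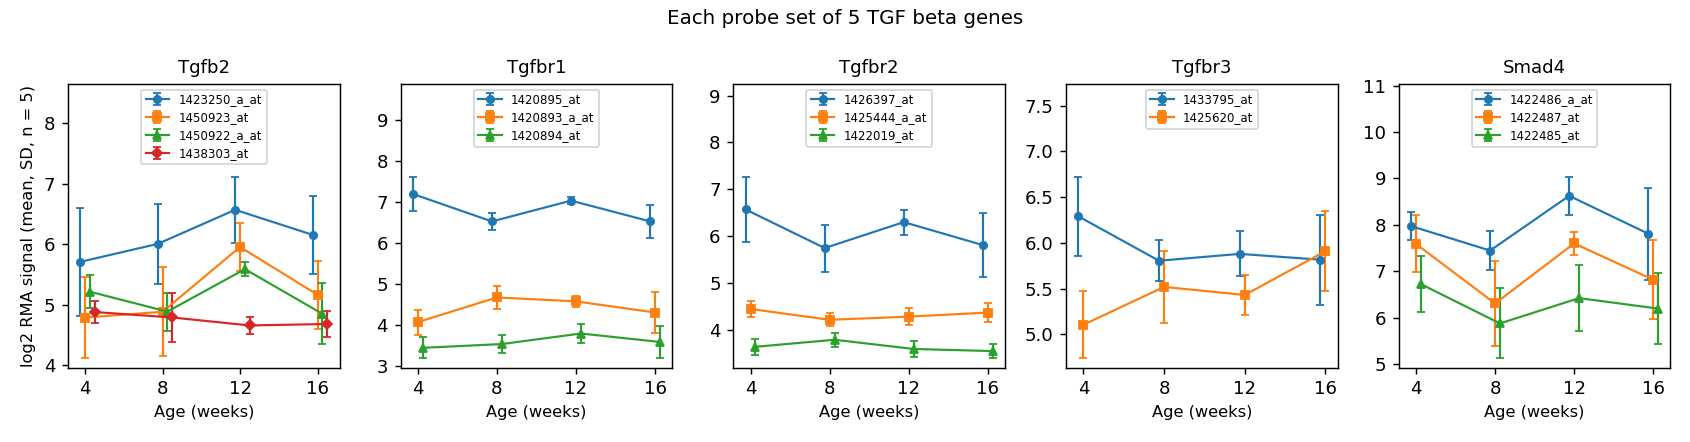
Log2 signal (vertical axis, mean and SD of 5 mice) of every probe set of Tgfb2, Tgfbr1, Tgfbr2, Tgfbr3 and Smad4 by age in weeks. Probe sets of Tgfbr1 and of Tgfbr3 ran in opposite directions between 4 and 8 weeks, and levels of different probe sets cannot be set against each other.

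Of 70 other genes of the pathway, 67 were measured. From 4 to 8 weeks 2 rose and 7 fell, that is 9 of 67 against 7.39% of all genes (3.26% higher and 4.13% lower), and their median log2 fold change was -0.26 against 0.05 over all genes. From 8 to 12 weeks 0 were called by limma (14 at an unadjusted p under 0.05, against 18.8% of all genes), between 12 and 16 weeks 1 fell (0.187% of all genes lower), between 4 and 12 weeks 1 fell (0.0275%), between 8 and 16 weeks 0 were called (5 at an unadjusted p under 0.05, against 5.81% of all genes) and between 4 and 16 weeks 5 fell (3.12%). Among genes of the latent complex, other receptors and other Smads 0 were called by limma in any of the 6 comparisons, and at an unadjusted p under 0.05 the receptors passed in 7 of 42 tests and the remaining groups in 0. The share of all genes at this threshold ranged from 5.81% to 32.4% between the comparisons. Ltbp1, which tethers latent ligand to the matrix, had a log2 fold change of -0.21 between 4 and 8 weeks, the endothelial coreceptor Eng had -0.18 and Smad5, a Smad of the bone morphogenetic protein branch, had 0.19 (limma, adjusted p = 0.431, 0.37 and 0.355).

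Of 9 activators, Itgb6 was the one called. Itgb6, an epithelial integrin subunit that with Itgav releases active TGF beta, rose by 0.69 between 4 and 8 weeks (SE 0.19, limma, adjusted p = 0.0352), and both its probe sets had this sign. Its signals were 4.53, 4.40, 4.49, 4.13 and 3.72 at 4 weeks and 4.68, 4.83, 5.20, 4.76 and 5.25 at 8 weeks, without overlap. Its mean over the 20 arrays lay at the 25.5th percentile of genes, within the range of signals of the Y-linked genes, and the filter on dim genes left it out. Its partner Itgav had a log2 fold change of -0.72 and did not pass the test (limma, adjusted p = 0.167). At 12 weeks Itgb6 lay between 3.94 and 4.55 and overlapped the mice at 4 weeks.

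Among the 10 adaptors and modifiers of Smads, 2 fell between 4 and 8 weeks, when 4.13% of all genes were called lower. Ppm1a, a phosphatase of Smad2 and Smad3, fell by 1.15 (SE 0.31) and Strap, which stabilises the binding of Smad7 to the receptor, fell by 0.97 (SE 0.23; limma, adjusted p = 0.035 and 0.0272). Strap was also lower at 16 than at 4 weeks, by a log2 fold change of -0.82 (limma, adjusted p = 0.0491). Of the 7 nuclear cofactors, Skil, a corepressor that TGF beta signalling degrades and later induces, fell by 0.78 between 4 and 8 weeks (limma, adjusted p = 0.0456). Of 6 genes of Smad-independent signalling, Traf6, a ubiquitin ligase that links the receptor to Map3k7, rose by 0.73 (limma, adjusted p = 0.0383), and Map3k7 had a log2 fold change of -0.0043 (limma, adjusted p = 0.985). From 4 to 8 weeks the sign of the leading probe set was shared by 4 of 8 probe sets of Ppm1a, 2 of 3 of Strap, 1 of 2 of Skil and 3 of 5 of Traf6.

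Of 19 measured genes that TGF beta is known to induce or regulate, 4 fell between 4 and 8 weeks (Ccn2, Col1a2, Col3a1 and Postn) and 4 between 4 and 16 weeks (Col1a1, Col3a1, Lox and Postn). Over all genes, 4.13% and 3.12% were called lower in these comparisons. Postn, a matrix protein of fibroblasts, had signals of 7.83, 7.63, 7.47, 8.13 and 8.08 at 4 weeks, 6.17, 6.85, 5.99, 6.79 and 6.10 at 8 weeks, 7.03, 6.73, 7.60, 7.38 and 7.37 at 12 weeks, and 6.27, 5.83, 6.21, 6.25 and 6.29 at 16 weeks. All mice at 4 weeks lay above those at 8 and 16 weeks, and all at 12 weeks lay above those at 16 weeks. Postn fell by 1.05 between 12 and 16 weeks (SE 0.19, limma, adjusted p = 0.0237) and was lower at 16 than at 4 weeks by a log2 fold change of -1.66 (limma, adjusted p = 0.0002). Ccn2, a matricellular target of Smad3, fell by 1.25 between 4 and 8 weeks (SE 0.34, limma, adjusted p = 0.0361). It was dim, with signals between 3.08 and 4.64 at 8 weeks and a mean at the 22.2nd percentile of genes, and the filter left it out.

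Collagens made up most of the other calls among targets. Col3a1, a fibrillar collagen, had signals between 9.05 and 10.5 at 4 weeks, 6.92 and 8.41 at 8 weeks, 7.57 and 8.46 at 12 weeks, and 6.38 and 8.29 at 16 weeks. The mice at 4 weeks lay above those of every later age, and the log2 fold change was -1.78 between 4 and 12 weeks and -2.32 between 4 and 16 weeks (limma, adjusted p = 0.0441 and 0.0023). Its 2 probe sets shared the sign but differed in size. Their log2 fold changes were -2.21 and -0.37 between 4 and 8 weeks and -1.78 and -0.75 between 4 and 12 weeks. Between 4 and 16 weeks they were -2.32 and -0.71. Col1a2 fell by 1.17 between 4 and 8 weeks (limma, adjusted p = 0.0392), in 2 of its 3 probe sets. Col1a1 fell by 0.79 between 4 and 16 weeks (limma, adjusted p = 0.0452), and Lox, the enzyme that cross-links collagen, fell by 0.89 (limma, adjusted p = 0.0153), in 2 of its 3 probe sets. Lox was dim too, with signals between 3.82 and 4.55 at 16 weeks and a mean at the 29.5th percentile, and was left out by the filter. Tgfbi, a matrix protein named for its induction by TGF beta, had a log2 fold change of -0.53 between 4 and 8 weeks and Fn1, which encodes fibronectin, had -0.05 (limma, adjusted p = 0.217 and 0.841). Of the 16 calls of other pathway genes, 5 held with the SD of each array as a covariate and 4 with the level of Bpifa2.

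**Figure D5:**
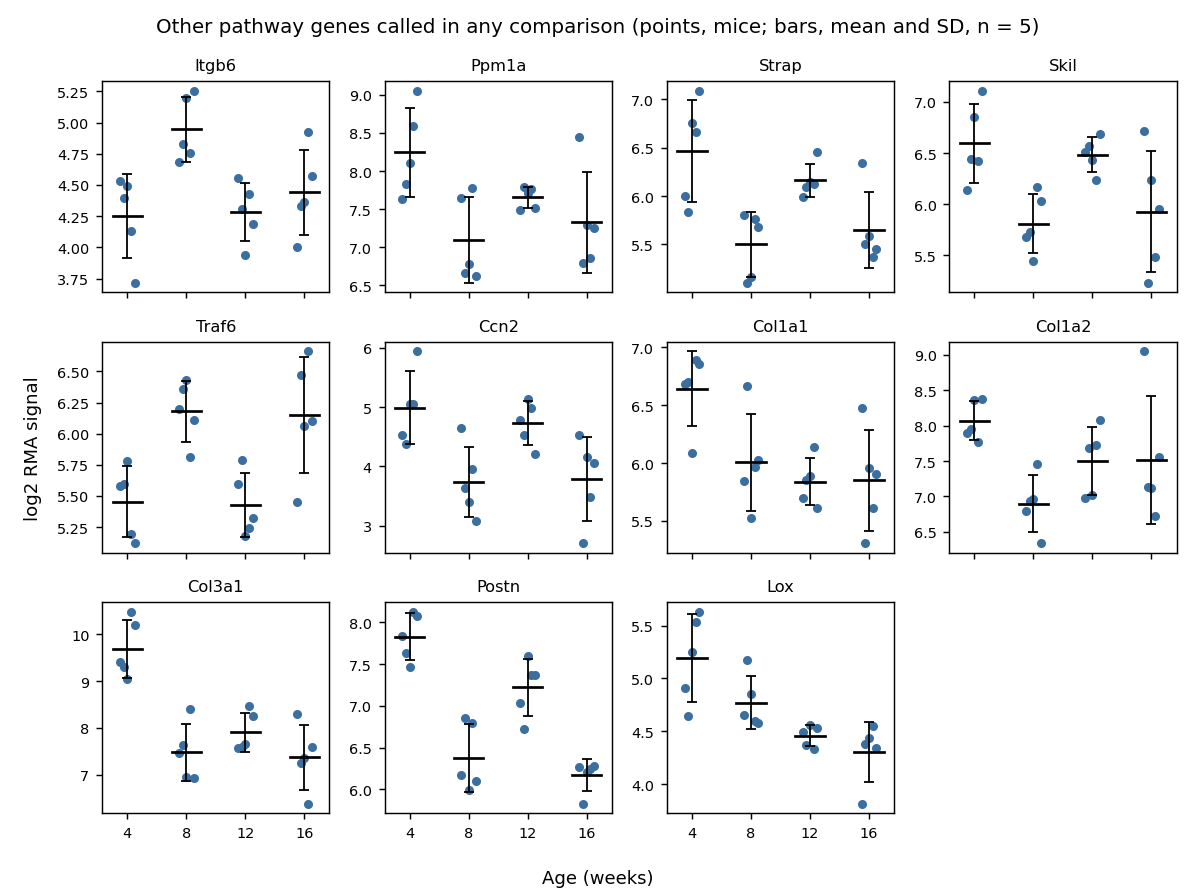
Log2 signal (vertical axis) by age in weeks of the 11 other pathway genes called in a comparison of 2 ages, where points are mice and bars give the mean and SD of 5 mice. Col3a1 at 4 weeks, at 9.05 or above, lay above every later age, and Itgb6 and Traf6 were higher at 8 than at 4 weeks.

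Of 10 fibroblast markers, 3 fell between 4 and 8 weeks (Col1a2, Col3a1 and Lum), 1 between 4 and 12 weeks (Col3a1) and 3 between 4 and 16 weeks (Col1a1, Col3a1 and Lum). Over all genes, 4.13%, 0.0275% and 3.12% were called lower in these comparisons. The 3 collagens are also on the list of targets, so that Lum, a proteoglycan of the matrix, was the 1 call among the 7 markers that are not. The log2 of the summed signal of the 10 markers was 11.1 ± 0.32 at 4 weeks (range 10.7 to 11.5), and at 8, 12 and 16 weeks it was 9.89 ± 0.36 (9.58 to 10.5), 10.4 ± 0.37 (10.004 to 10.9) and 10.1 ± 0.68 (9.34 to 11.2; SD, n = 5 mice). Without the 3 collagens, a sum added after seeing the data, it was 9.85 ± 0.25 at 4 weeks (range 9.48 to 10.1) and 9.17 ± 0.38 (8.71 to 9.68), 9.71 ± 0.41 (9.31 to 10.3) and 9.43 ± 0.65 (8.69 to 10.5) at 8, 12 and 16 weeks. Pdgfra, a defining marker, lay between 5.66 and 7.65 over the 20 arrays. Its lowest signal was within the range of the Y-linked Uty, 4.58 to 5.76. The part of fibroblasts in the changes of Tgfbr1 and of the targets was not tested.

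Of 12 acinar and duct markers Smgc was the one called, with a log2 fold change of -1.74 between 4 and 16 weeks (limma, adjusted p = 0.0023). In this comparison 3.12% of all genes were called lower. The median log2 fold change of the 12 markers was -0.69 between 4 and 8 weeks (9 of 12 negative), 0.64 between 8 and 12 weeks (3 of 12) and -0.67 between 12 and 16 weeks (8 of 12), with the same signs as the medians of the 10 TGF beta genes in these periods. The log2 of their summed signal was 14.4 ± 0.48 at 4 weeks (range 13.6 to 14.9), 13.7 ± 0.79 at 8 weeks (12.4 to 14.4), 14.4 ± 0.16 at 12 weeks (14.2 to 14.7) and 13.6 ± 0.94 at 16 weeks (12.5 to 14.7; SD, n = 5 mice). The part of the epithelium in the values of the 10 genes was not tested. Among 8 lymphocyte markers Cd3e rose by 0.41 between 4 and 8 weeks, when the list had a median of 0.34, and among 8 macrophage markers Cd68 fell by 0.62, with a list median of -0.14 (limma, adjusted p = 0.0446 and 0.0477). Between these ages 3.26% of all genes were called higher and 4.13% lower. Markers of endothelium, skeletal muscle and adipocytes had 0 calls by limma. Over the 6 comparisons 19 of 72 tests passed at an unadjusted p under 0.05 for acinar and duct, 13 of 60 for fibroblast, 6 of 48 for lymphocyte, 4 of 48 for macrophage, 4 of 42 for endothelial, 3 of 48 for skeletal muscle and 0 of 24 for adipocyte markers. At this threshold the share of all genes ranged from 5.81% to 32.4% between the comparisons. These counts are therefore descriptions and not results about the lists.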

How the data were processed

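The authors isolated RNA with the RNeasy kit, hybridised 1 array per mouse and deposited log2 signals of probe sets made with RMA. Which arrays were normalized together was not given in the sources used here, and the number of arrays limits the precision. Of the probe sets, 34958 had 1 gene symbol in the platform annotation (34754 matched RefSeq), 932 had several and 9211 had none. No further normalization was made. One limma model (version 3.58.1, R 4.3.3) was fitted to the 20 arrays with age as factor, and p-values were adjusted over 18194 genes or over all probe sets, with a threshold of 0.05. Steps were tested on simulated data. Named were the 10 genes, other pathway genes called in a comparison of 2 ages, the first gene or genes of a role, and the 3 genes most correlated with a called member. Exact permutation tests ran over 252 labelings. The genes, lists and alternatives were chosen with earlier results of these data known. Alternatives were quantile and cyclic loess normalization, the mean of probe sets, a filter at the 40th percentile, a replicate block, a fit to 2 ages, limma-trend and leaving out each mouse. The SD of each array and the level of Bpifa2 as covariates, and the counts of probe sets under all alternatives, were added after seeing the data.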

Additional observations from a re-analysis of the deposited data

Results flagged for a closer look

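In 4 of 84 groups of 5 mice, 1 mouse stood apart from the others by Dixon's criterion, which chance meets in about 1 in 20 groups. None of them was among the 40 groups of the 10 ligands, receptors and Smads, and all were groups of other pathway genes. Strap was high in replicate 1 at 16 weeks, with a log2 signal of 6.34 against 5.37 to 5.58 in the other 4 mice. Col1a1 was low in replicate 3 at 4 weeks, with 6.09 against 6.69 to 6.89. Postn was low in replicate 2 at 16 weeks, with 5.83 against 6.21 to 6.29, and Lox was low in replicate 1 at 16 weeks, with 3.82 against 4.34 to 4.55.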

How the results depend on the processing

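Values of the 10 genes in 4 comparisons and under 9 alternatives (40 values for each) kept direction and side of the threshold in 317 instances, whereas 34 changed sign without being called, 6 lost a call, 2 gained one and 1 reversed, Tgfbr1 between 4 and 8 weeks with the mean of probe sets (0.0076, limma, adjusted p = 0.973). The probe sets of Tgfbr1 in that mean other than the leading one were dim, as given above. Before any alternative, 1 of the 40 values was called, Tgfbr1 between 4 and 8 weeks, and 2 of the 9 alternatives kept that call. The 317 instances are therefore mostly values that were not called either way, and they do not measure how stable a call was. Of the 16 calls of other pathway genes, 14 held with quantile and 12 with cyclic loess normalization, 10 with the mean of probe sets, 6 with the replicate block, 4 in fits to 2 ages, 16 with limma-trend, and 5 with the array SD and 4 with Bpifa2 as covariates. With the filter 12 of the 13 calls whose genes were kept held. Calls of Col3a1 and Postn between 4 and 16 weeks held under all 9 alternatives and without each mouse. The cause was not tested for any change named here.

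Between 4 and 8 weeks, the count of the 10 genes called was 1 and became 0 with quantile normalization, cyclic loess, the mean of probe sets, the replicate block, a fit to 2 ages, the array SD and Bpifa2. Of the 25 probe sets 1 was called, against 2 with limma-trend and 0 with quantile, cyclic loess, the block, 2 ages, the array SD and Bpifa2. Between 4 and 16 weeks the filter gave 1 gene (Tgfbr1) and 2 probe sets, and the count of 1 probe set became 0 under the same 6 alternatives. Between 8 and 12 weeks a fit to 2 ages called 1 gene, Smad4.

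Of the 67 other pathway genes, the 9 called between 4 and 8 weeks became 3 with the replicate block, 0 in a fit to 2 ages, 2 with the array SD and 1 with Bpifa2. The 5 between 4 and 16 weeks became 8 with quantile and with cyclic loess, 3 with the block and 2 with 2 ages, the array SD and Bpifa2. Between 8 and 12 weeks a fit to 2 ages called 2. The 1 call between 12 and 16 weeks was lost (0) with cyclic loess, the block and the array SD, and that between 4 and 12 weeks (0) with the filter, the block and Bpifa2. In the F test 5 became 8 with cyclic loess, 3 with the mean of probe sets and 2 with the block, the array SD and Bpifa2.

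Over all genes, the 1345 calls between 4 and 8 weeks (593 higher) became 245 with the replicate block, 2 in a fit to 2 ages, 16 with the array SD and 3 with Bpifa2, and the share of higher calls moved with quantile normalization (354 higher, 704 lower), cyclic loess (318 and 968), the mean of probe sets (805 and 651) and the filter (349 and 761). Between 8 and 12 weeks the 1 call became 11 with quantile, 4 with cyclic loess, 0 with the mean of probe sets, 274 with 2 ages and 2 with limma-trend and with the array SD. Between 12 and 16 weeks 35 became 18 with the mean of probe sets, 15 with the block, 111 with 2 ages and 23 with limma-trend. Between 4 and 12 weeks 17 became 8 with the filter, 6 with the block and with Bpifa2 and 110 with the array SD, and quantile and cyclic loess split them into 6 higher and 6 lower and 10 higher and 9 lower, against 12 and 5. Between 8 and 16 weeks 0 became 10 with quantile, 7 with cyclic loess and 12 with the array SD. Between 4 and 16 weeks 660 became 262 with the block, 75 with 2 ages, 148 with the array SD (82 higher, 66 lower) and 72 with Bpifa2, and the 92 higher and 568 lower became 196 and 534 with quantile and 221 and 567 with cyclic loess. The 473 calls of the F test became 86 with the block, 122 with the array SD and 41 with Bpifa2.

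With 1 mouse left out, counts of the 10 genes ranged from 0 to 1 between 4 and 8 weeks, from 0 to 2 between 12 and 16 and between 4 and 16 weeks, and from 0 to 3 in the F test. Counts of the 25 probe sets ranged from 0 to 3, 0 to 2, 0 to 4 and 0 to 5. The call of Tgfbr1 was lost without replicates 3, 4 or 5 at 4 weeks, 1, 2, 3 or 5 at 8 weeks, or 1, 2, 4 or 5 at 12 weeks. Without replicate 1 or 2 at 4 weeks Tgfbr1 was called between 4 and 16 weeks. Counts of other pathway genes ranged from 2 to 12 between 4 and 8 weeks (2 without replicates 4 or 5 at 4 weeks or 3 or 5 at 8 weeks), 0 to 3 between 8 and 12, 0 to 6 between 12 and 16, 0 to 1 between 4 and 12 and 2 to 17 between 4 and 16 weeks, and 2 to 15 in the F test. The highest of these counts between 12 and 16 and between 4 and 16 weeks and in the F test came without replicate 1 at 16 weeks. Counts of all genes ranged from 14 to 2694 between 4 and 8, 1 to 225 between 8 and 12, 9 to 1035 between 12 and 16, 6 to 22 between 4 and 12, 0 to 1 between 8 and 16 and 81 to 3003 between 4 and 16 weeks, and from 85 to 2611 in the F test.

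Replicate numbers did not pair the mice, as the correlation of deviations between mice of the same number ranged from -0.57 to 0.58 over 30 pairs and 7 correlated best with their own number. A signal of 1 array per mouse gives no depth, and the 10 genes lay above the 40th percentile of mean signal. This cut does not show that a signal stood above background. The means of Smad2, Smad7 and Tgfb3 (5.42, 5.54 and 5.75) lay within the range of the Y-linked Uty, 4.58 to 5.76.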
